A study of Culex pipiens pallens and Culex quinquefasciatus with 12 samples.

Results

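The 3 gene models described as cytosol aminopeptidase in the *Culex* gene set, CPIJ000990-RA, CPIJ003539-RA and CPIJ009640-RA, were followed through 12 RNA-seq libraries of whole mosquito larvae. They were taken by identifier, and they are the only 3 with that description among the 17757 gene models read in any library. They were chosen because their levels in these same libraries were at or near 0 in 2 pools. Those levels are therefore given as a description, without a test. There were 7 libraries of *Culex pipiens pallens*, a northern house mosquito, and 5 of *Culex pipiens quinquefasciatus*, the southern house mosquito. For each, 30 larvae were pooled and their poly(A) RNA was sequenced. The labels give no instar, sex, strain, insecticide treatment or resistance level for any library, although the title of the series speaks of levels of resistance, so subspecies was the only factor that could be compared. No label says that pools came from separate cultures, and the p-values below measure only the spread between these pools.

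Cytosol aminopeptidases, also called leucyl aminopeptidases, are metal-dependent enzymes that remove amino acids from the amino-terminal end of peptides. In most tissues they take part in protein turnover. In *Drosophila melanogaster* a set of leucyl aminopeptidases is made in the testis and is abundant in mature sperm. Whether the 3 *Culex* genes correspond to that set was not analysed here. Axonemal dyneins, the motors of motile cilia and sperm tails, and tubulins, which build the microtubules they walk on, are set beside them as context. In insects axonemes occur, among other cells, in sperm and in the ciliated dendrites of stretch-receptor neurons. In RNA of whole larvae, fewer cells of a type and less RNA per cell cannot be told apart.

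All 3 genes carry the deposited annotations metallopeptidase activity, exopeptidase activity and binding of transition metal ions. CPIJ000990-RA lies on scaffold supercont3.11 at 1512143 to 1513831, CPIJ003539-RA on supercont3.48 at 1146611 to 1148394, and CPIJ009640-RA on supercont3.227 at 563536 to 565179, each on the plus strand, in the coordinates of the deposited files. Their models are of nearly equal length, at 1623, 1599 and 1587 bases, so that their levels can be compared by reads as well as per length. The files give no exons and no sequences.

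CPIJ000990-RA had between 0 and 355 uniquely mapped reads in the pallens libraries, with a median of 50, and 56, 93, 59, 24 and 0 reads in quinquefasciatus 1 to 5. Per length, as the deposited RPKM, which divides reads by the length of the gene model and the library total, this was 0 to 51.0 with a median of 7.27 in pallens, and 6.84, 13.0, 7.04, 2.85 and 0 in quinquefasciatus. Pallens 6 and 7 were highest at 49.7 and 51.0 RPKM, and pallens 1 and quinquefasciatus 5 had no read at all.

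CPIJ003539-RA followed the same order closely. It had between 2 and 351 reads in pallens, with a median of 83, and 42, 87, 57, 15 and 0 reads in quinquefasciatus 1 to 5. Its deposited RPKM was 0.278 to 51.2 with a median of 12.2 in pallens, and 5.21, 12.3, 6.91, 1.81 and 0 in quinquefasciatus. The 2 reads of pallens 1 were again the fewest among the pallens libraries, and the subspecies overlapped over most of their range.

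CPIJ009640-RA was the least abundant of the 3. It had between 1 and 89 reads in pallens, with a median of 23, and 15, 26, 22, 13 and 0 reads in quinquefasciatus 1 to 5. Its deposited RPKM was 0.140 to 13.1 with a median of 3.42 in pallens, and 1.87, 3.72, 2.69, 1.58 and 0 in quinquefasciatus. Pallens 7 and pallens 2 were highest at 13.1 and 12.3 RPKM. Pallens 4, with 5 reads, was the next lowest after pallens 1 and quinquefasciatus 5.

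**Figure D1:**
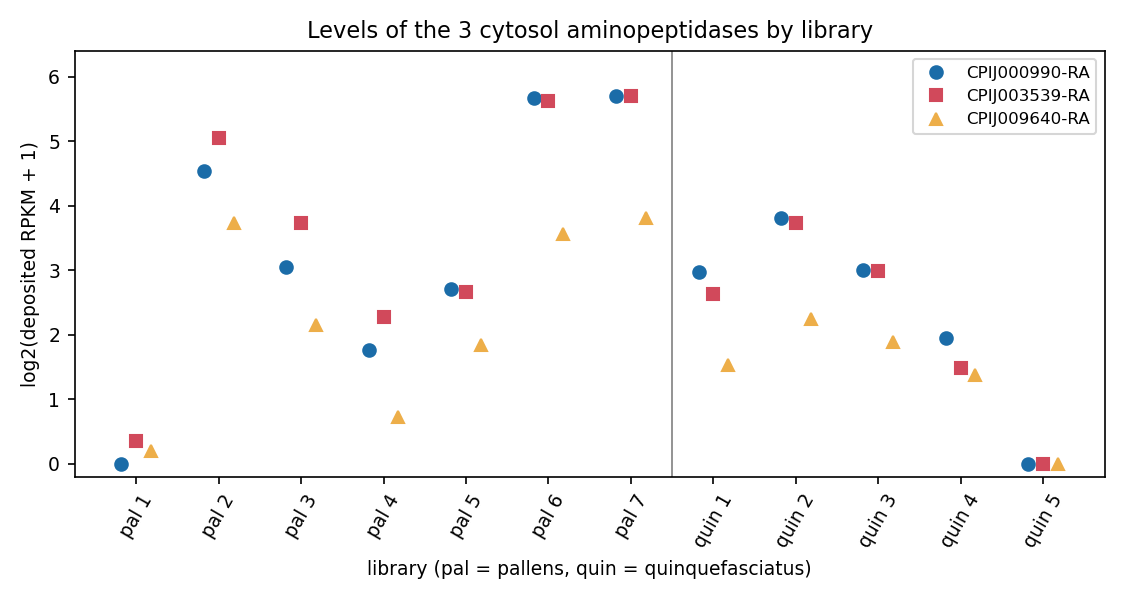
Level of each cytosol aminopeptidase in each library, as log2(deposited RPKM + 1) on the vertical axis, with the 7 pallens libraries on the left and the 5 quinquefasciatus libraries on the right; each point is 1 gene in 1 library. The 3 genes go up and down together, from 0 or near 0 in pallens 1 and quinquefasciatus 5 to 51.0, 51.2 and 13.1 RPKM in pallens 7.

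Absent is therefore exact for quinquefasciatus 5, with 0 reads for each gene, whereas pallens 1 had 0, 2 and 1 reads. With 3 reads taken as the limit that a count of 0 allows, this limit is 0.655 CPM (reads scaled to a common library total, without TMM) in quinquefasciatus 5 and 0.667 CPM in pallens 1. TMM-normalized CPM, used from here on, rescales the totals, so that 3 reads in pallens 1 become 0.780 CPM. Summed over the 3 genes, it was 165 in pallens 6, 156 in pallens 7 and 94.6 in pallens 2. Quinquefasciatus 2 (43.4), pallens 3 (40.0), quinquefasciatus 3 (24.7), quinquefasciatus 1 (21.6), pallens 5 (21.2), pallens 4 (11.7) and quinquefasciatus 4 (11.1) came next, followed by pallens 1 (0.780) and quinquefasciatus 5 (0). Going down this order, the 95% Poisson intervals of neighbouring libraries overlapped for pallens 6 and 7, for quinquefasciatus 2 and pallens 3, among quinquefasciatus 3, quinquefasciatus 1 and pallens 5, for pallens 4 and quinquefasciatus 4, and for pallens 1 and quinquefasciatus 5. The intervals were 0.161 to 2.28 CPM in pallens 1 and 8.29 to 14.6 CPM in quinquefasciatus 4, the next library up. The other 10 libraries, all with reads of all 3 genes, spanned 14.8-fold. Intervals and limits cover counting error only.

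Depth did not set pallens 1 and quinquefasciatus 5 apart. They held 4.5e6 and 4.6e6 unique reads, within the range of 3.9e6 to 4.9e6 in pallens and 4.4e6 to 5.2e6 in quinquefasciatus. They did have the fewest gene models with a read, 14321 and 14338, against 14489 to 15467 in the others. They also had the lowest TMM scaling factors, 0.855 and 0.833, in a range up to 1.19. The part of these differences in the results was not tested.

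Reads covered the gene models broadly wherever the genes were read at depth. The deposited coverage of CPIJ000990-RA, in percent of its model, was 92.48% in pallens 6 and 94.7% in pallens 7. In the same 2 libraries it was 99.31% and 97.81% for CPIJ003539-RA, and 81.66% and 87.96% for CPIJ009640-RA. In quinquefasciatus 4, with 24, 15 and 13 reads, coverage was 48.74%, 31.64% and 32.51%. In pallens 1 the 2 reads of CPIJ003539-RA covered 6.13% of its model and the single read of CPIJ009640-RA covered 3.09%.

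The 3 genes ranked the libraries in much the same order, with some differences in their proportions. Over the 12 libraries the rank correlation between any pair of them was 0.94 to 0.97 (Spearman's rho of log2(CPM + 1), a description of genes that were chosen for a shared pattern). CPIJ000990-RA made up 51.0% of its reads plus those of CPIJ003539-RA in pallens 6 (95% exact binomial interval 47.2 to 54.9%) and 50.3% in pallens 7 (46.5 to 54.0%). Its share was 41.2% in pallens 2 (36.1 to 46.6%), 37.6% in pallens 3 (29.3 to 46.4%), 38.8% in pallens 4 and 51.5% in pallens 5. In quinquefasciatus 1 to 4 it was 57.1%, 51.7%, 50.9% and 61.5%. The intervals of pallens 2 and pallens 3 lie wholly below that of pallens 6.

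The genes were chosen by whether they were read, not by the ratio between them. The share was compared between the subspecies over the 10 libraries with at least 20 reads. Its mean was 45.1 ± 6.54% over the pallens libraries (SD, n = 6) and 55.3 ± 5.01% over those of quinquefasciatus (n = 4), a difference of -10.2 percentage points (exact permutation test, two-sided, p = 0.0286, adjusted p = 0.0571 over the 2 shares compared). The difference did not pass the threshold of 0.05 after adjustment, and pallens 5 and pallens 6, the highest of their group, overlapped quinquefasciatus 3, the lowest of its group. The highest quinquefasciatus shares rested on few reads of the 2 genes, 98 in quinquefasciatus 1 and 39 in quinquefasciatus 4. Pallens 4 and pallens 5 held 49 and 68. CPIJ009640-RA made up 9.26 to 19.0% of the reads of all 3 genes in pallens and 12.6 to 25% in quinquefasciatus. Its mean share was 13.7 ± 4.27% in pallens (n = 6) and 16.7 ± 5.71% in quinquefasciatus (n = 4), a difference of -2.99 percentage points that did not pass the test (exact permutation test, two-sided, adjusted p = 0.390). Both comparisons were added after the values were seen.

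**Figure D2:**
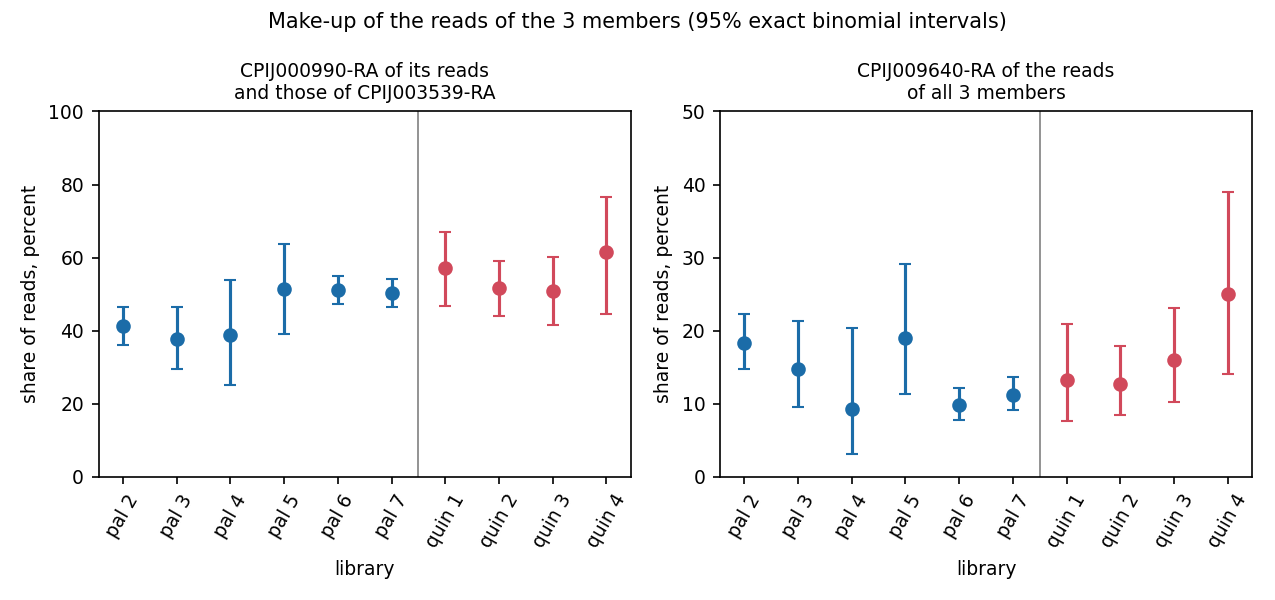
Share of CPIJ000990-RA among its reads and those of CPIJ003539-RA (left) and of CPIJ009640-RA among the reads of all 3 genes (right), in percent, for the 6 pallens and 4 quinquefasciatus libraries with at least 20 reads; points are libraries and bars are 95% exact binomial intervals. On the left, pallens 2, 3 and 4 lie at 37.6 to 41.2% and the other libraries at 50.3 to 61.5%.

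Between the subspecies the mean levels were higher in pallens, with wide overlap. For CPIJ000990-RA the mean was 29.0 ± 31.6 CPM over pallens libraries (SD, n = 7) and 9.20 ± 7.31 CPM over quinquefasciatus libraries (n = 5). For CPIJ003539-RA it was 31.9 ± 30.3 CPM over pallens and 7.95 ± 7.05 CPM over quinquefasciatus libraries. For CPIJ009640-RA it was 8.88 ± 7.79 CPM over pallens and 3.01 ± 2.01 CPM over quinquefasciatus libraries. In each case the SD in pallens was about as large as the mean, with pallens 2, 6 and 7 high and pallens 1 near 0. The log2 changes in edgeR's fit over all genes, pallens minus quinquefasciatus, were 1.65 (SE 1.03), 1.99 (SE 0.97) and 1.54 (SE 0.83). Without pallens 1 and quinquefasciatus 5 they were 1.55 (SE 0.77), 1.90 (SE 0.74) and 1.45 (SE 0.64). Whether reads of both subspecies map equally well to these gene models was not tested.

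The 3 genes lie on 3 different scaffolds, and none overlaps another gene model in the deposited tables. Next to CPIJ000990-RA lie a gene described as cytochrome P450 307a1 (CPIJ000989-RA), 10036 bases away, with 0 to 4 reads per library, and an undescribed gene (CPIJ000991-RA), 17082 bases away. CPIJ000991-RA had 1, 19, 9, 6, 2, 21 and 32 reads in pallens 1 to 7 and 2, 9, 6, 0 and 0 reads in quinquefasciatus 1 to 5, too few for the test. An axonemal dynein intermediate chain (CPIJ000996-RA) lies on the same scaffold, 110372 bases and 5 gene models further on. The neighbours of the other genes did not follow them. CPIJ009639-RA, a mitochondrial single-stranded DNA-binding protein only 558 bases from CPIJ009640-RA, had 14 reads in pallens 1 and 13 in quinquefasciatus 5, against 15 to 39 in the others. CPIJ009641-RA, 672 bases away on the other side, had 35 and 22 reads in those libraries. Beside CPIJ003539-RA, CPIJ003538-RA (64672 bases away) had 1320 reads in pallens 1 and 1048 in quinquefasciatus 5, and CPIJ003540-RA (22607 bases away) had 341 and 472 reads in those libraries. CPIJ003538-RA went the other way, with its highest CPM of each subspecies in these pools. It was at 343 CPM in pallens 1, against 107 to 226 in the other pallens libraries. In quinquefasciatus 5 it was at 275 CPM, against 190 to 247 in the other quinquefasciatus libraries.

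The other genes named as leucine or leucyl aminopeptidase were read at high levels in every library. Leucine aminopeptidase CPIJ002841-RA ranged from 47.6 to 95.4 RPKM in pallens, with a median of 63.2, and was at 78.2, 59.3, 63.5, 91.0 and 97.2 RPKM in quinquefasciatus 1 to 5. Pallens 1 and quinquefasciatus 5, where the cytosol aminopeptidases had at most 2 reads, had its highest values in their subspecies. The putative leucyl aminopeptidase CPIJ009825-RA ranged from 53.9 to 115 RPKM in pallens and from 70.3 to 118 RPKM in quinquefasciatus. Leucine aminopeptidase 1 (CPIJ016662-RA) ranged from 45.5 to 77.6 RPKM in pallens and from 46.1 to 82.8 RPKM in quinquefasciatus. The lowest of these values, 45.5 RPKM, was close to the highest that any cytosol aminopeptidase reached, 51.2 RPKM. In the comparison of the subspecies 0 of the 3 passed an adjusted p of 0.05 in edgeR's quasi-likelihood test, 0 had an unadjusted p under 0.05 and 0 were called by DESeq2. Over all 10617 genes tested, 0.537% were called at that threshold, 0.339% higher and 0.198% lower in pallens, and 13.0% had an unadjusted p under 0.05. DESeq2 called 2.78% of the 10600 genes to which it gave an adjusted p.

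Of 17 tested genes of other aminopeptidases, out of 20, edgeR called 0, against 0.537% of all tested genes. Unadjusted p was under 0.05 for 3, against 13% of all tested genes. DESeq2 called 2, against 2.78% of all genes. The median log2 change was -0.25, against 0.02 over all tested genes. Aminopeptidase N (CPIJ008387-RA), an enzyme known from the brush border of the gut, had a mean of 286 ± 287 CPM over the pallens and 593 ± 313 CPM over the quinquefasciatus libraries, which did not pass the test (edgeR adjusted p = 0.45). Within pallens it was highest in pallens 1 at 854 CPM. The pair with the smallest p was xaa-Pro aminopeptidase 1 (CPIJ015407-RA) and an aminopeptidase N precursor (CPIJ012036-RA). CPIJ015407-RA ranged from 11.6 to 38.0 CPM in pallens and stood at 29.4, 60.5, 27.9, 65.6 and 42.5 CPM in quinquefasciatus 1 to 5 (log2 change -1.27, SE 0.31, edgeR adjusted p = 0.0977). CPIJ012036-RA ranged from 6.12 to 29.1 CPM in pallens and stood at 65.7, 18.8, 30.2, 78.4 and 37.5 CPM in quinquefasciatus 1 to 5 (log2 change -1.71, SE 0.47, edgeR adjusted p = 0.142). Pallens 1 was the highest or second highest pallens library for both, and each missed the threshold. Both were called by DESeq2, at adjusted p = 0.0119 and 0.0256, and in edgeR without pallens 1, at adjusted p = 0.0121 and 0.0489. Without pallens 1 and quinquefasciatus 5 only xaa-Pro aminopeptidase 1 was called in edgeR (adjusted p = 0.00959). Glutamyl aminopeptidase (CPIJ011103-RA), the most abundant per length, was at 407 CPM in pallens 1 and 138 to 204 CPM in the other pallens libraries, and at 445 CPM in quinquefasciatus 5 and 214 to 279 CPM in the other quinquefasciatus libraries.

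Axonemal dyneins were expressed at low levels and went with the cytosol aminopeptidases in part. The intermediate chain of inner arm i1 (CPIJ010580-RA) had 4 to 34 reads in pallens, with 4 each in pallens 1 and pallens 4, and 7, 17, 15, 6 and 1 reads in quinquefasciatus 1 to 5. Ciliary dynein heavy chain 11 (CPIJ002912-RA) had 3 to 46 reads in pallens, with the fewest in pallens 1, and 6, 17, 9, 9 and 3 reads in quinquefasciatus. Ciliary dynein heavy chain 5 (CPIJ007215-RA) had 15 to 78 reads in pallens and 18, 40, 32, 14 and 10 in quinquefasciatus. Pallens 1, with 21 reads of it, was above pallens 4.

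The cytosol aminopeptidases were chosen for levels near 0 in pallens 1 and quinquefasciatus 5. Unlike them, the axonemal dyneins as a sum were not near 0 in these pools, although single genes were. Summed over the 7 genes of the list, they stood at 12.2 CPM in pallens 1 and 12.2 to 56.7 CPM over all pallens libraries, with a median of 34.6. In quinquefasciatus 1 to 5 the sum was 13.8, 29.7, 21.4, 14.7 and 13.9 CPM. Pallens 4 at 13.4 CPM was close to pallens 1, and it held 11.7 CPM of cytosol aminopeptidases. Of the 7 genes, 1 had no read in pallens 1 and 0 lacked reads in quinquefasciatus 5. In these libraries CPIJ000996-RA had 2 and 2 reads, CPIJ002912-RA 3 and 3, and CPIJ010580-RA 4 and 1. Heavy chain CPIJ007215-RA had 21 and 10 reads there. The intermediate chain CPIJ007878-RA, the most abundant per length, had 13 reads in pallens 1 and 33 in quinquefasciatus 5, in a range of 13 to 47. CPIJ007215-RA and CPIJ007878-RA held most of the sum there, at 5.46 and 3.38 CPM in pallens 1 and 2.62 and 8.65 CPM in quinquefasciatus 5. Reads covered at most 28.47% of the CPIJ007878-RA model in any library.

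Between the subspecies edgeR called 0 of 6 tested axonemal dyneins and DESeq2 called 0, against 0.537% and 2.78% of all genes. Unadjusted p was under 0.05 for 4, against 13% of all tested genes. Fold changes were positive for 5 of the 6, against 52.5% of all tested genes. With library totals alone as the scaling they were positive for 6, against 57.7%. The median log2 change was 1.24, against 0.02 over all tested genes. Heavy chain 5 (CPIJ007215-RA) had a mean of 10.2 ± 4.93 CPM over the pallens and 4.64 ± 2.44 CPM over the quinquefasciatus libraries (log2 change 1.12, SE 0.42, edgeR adjusted p = 0.278). For heavy chain 11 (CPIJ002912-RA) the means were 4.65 ± 3.29 CPM over pallens and 1.81 ± 1.08 CPM over quinquefasciatus libraries (log2 change 1.35, SE 0.57, edgeR adjusted p = 0.338). The intermediate chain CPIJ000996-RA stood at 4.01 ± 3.39 CPM over pallens and 1.39 ± 0.92 CPM over quinquefasciatus libraries (edgeR adjusted p = 0.379).

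Among the tubulins, 1 gene came close to the cytosol aminopeptidases. An alpha-tubulin (CPIJ001353-RA, supercont3.18 at 1333715 to 1335112) had 0 to 253 reads in pallens, with a median of 32, and 35, 38, 28, 10 and 0 reads in quinquefasciatus 1 to 5. It had no read in pallens 1 and quinquefasciatus 5, as CPIJ000990-RA did, and was highest in pallens 7 and pallens 6 at 46.2 and 39.5 RPKM. Tubulin beta-4 chain (CPIJ000407-RA) ranged from 5.01 to 76.4 RPKM in pallens, with pallens 1 lowest, and stood at 8.21, 11.4, 7.82, 2.83 and 2.40 RPKM in quinquefasciatus 1 to 5. Its mean was 60.9 ± 48.9 CPM over the pallens and 12.1 ± 6.31 CPM over the quinquefasciatus libraries, a log2 change of 2.32 (SE 0.63), and it missed the threshold in edgeR (adjusted p = 0.132). The 43 reads of CPIJ000407-RA in pallens 1 covered 18.08% of its model, and the 21 in quinquefasciatus 5 covered 5.77%. Coverage in the other libraries was 45.55 to 76.83%, so the level in these 2 pools came from a small part of the model.

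The abundant tubulins had no library near 0. Tubulin alpha-1 chain (CPIJ006724-RA) stood at 1352 ± 259 RPKM over the pallens and 1195 ± 209 RPKM over the quinquefasciatus libraries, and its 1367 RPKM in pallens 1 was the median of pallens. Tubulin beta chain (CPIJ003260-RA) stood at 1246 ± 402 RPKM over pallens and 1052 ± 159 RPKM over quinquefasciatus libraries. For tubulin beta-2C chain (CPIJ003259-RA), on the same scaffold, it was 684 ± 160 RPKM over pallens and 541 ± 107 RPKM over quinquefasciatus libraries. A short alpha-tubulin model of 600 bases (CPIJ015345-RA) went the other way, with 140 reads in pallens 1 and 11 to 25 in the other pallens libraries, against 3, 7, 7, 7 and 12 reads in quinquefasciatus 1 to 5. Of 11 tested tubulins, out of 18, edgeR called 0, against 0.537% of all tested genes. Unadjusted p was under 0.05 for 3, against 13% of all tested genes. All 11 had positive fold changes, also with either other scaling, with a median log2 change of 0.31. Over all tested genes 52.5% had positive fold changes, and 57.7% with library totals alone. DESeq2, which called 2.78% of all genes, called CPIJ000407-RA and CPIJ015345-RA, at adjusted p = 0.00538 and 0.0298. In edgeR CPIJ000407-RA was called without pallens 1 (adjusted p = 0.0417), and CPIJ015345-RA was called without pallens 1 and quinquefasciatus 5, at a log2 change of 1.68 (adjusted p = 0.0367), against 2.43 over all 12 libraries. Only uniquely mapped reads were counted, which takes reads from near-identical copies, so the level of any single tubulin is uncertain.

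**Figure D3:**
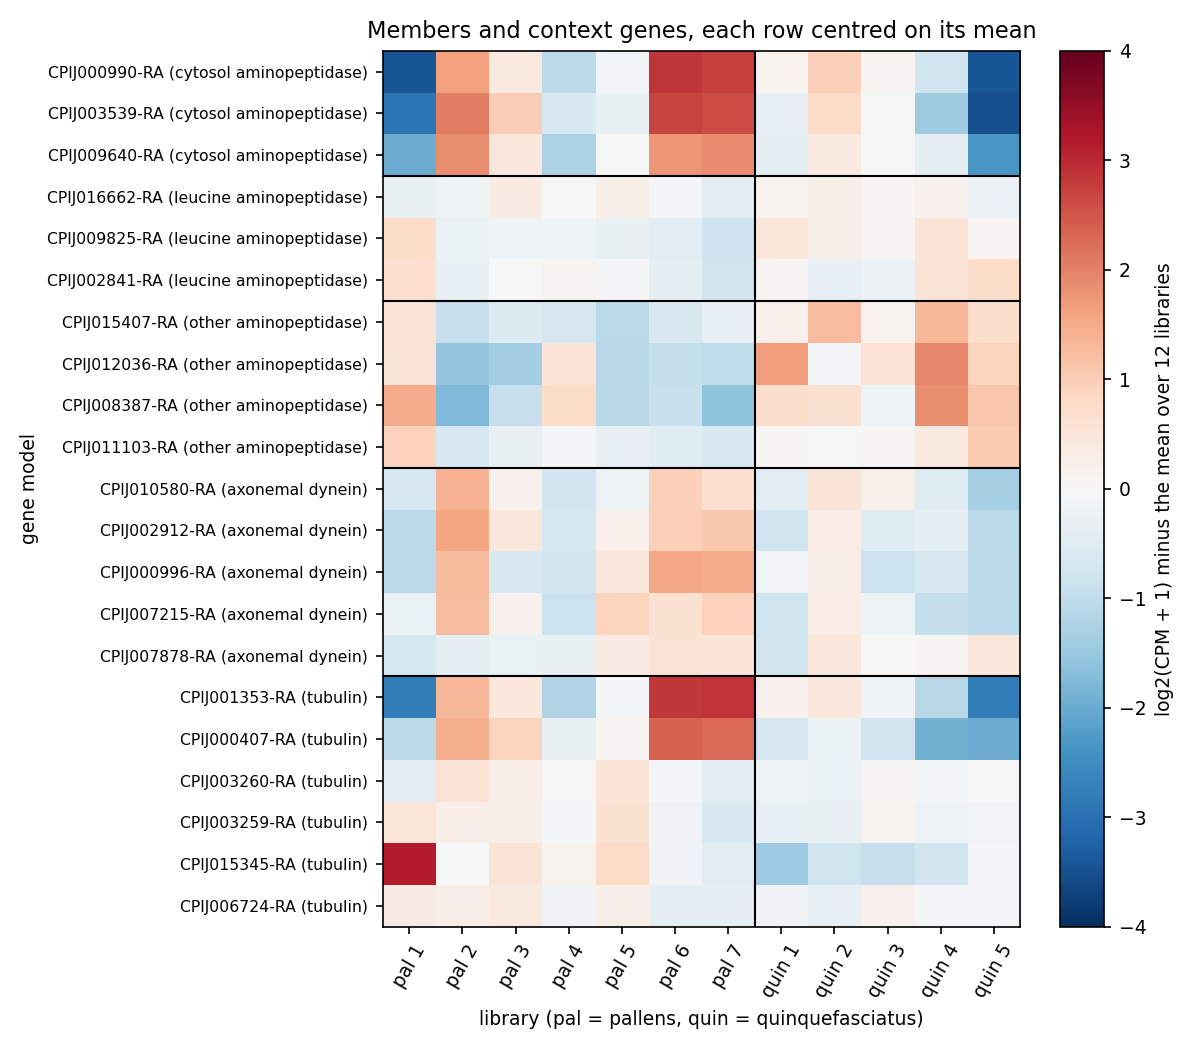
Log2(CPM + 1) of the cytosol aminopeptidases and of named context genes in each library, each row centred on its mean over the 12 libraries, red above and blue below it, with the 7 pallens libraries left of the line and the 5 quinquefasciatus libraries right of it. Among the tubulins CPIJ001353-RA has 0 reads in pallens 1 and quinquefasciatus 5 as CPIJ000990-RA does, the leucine aminopeptidases are near 0 in no library, and CPIJ015345-RA is high in pallens 1 at 36.4 CPM.

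To place the genes among all others, the likeness of each tested gene to the cytosol aminopeptidases was taken as Spearman's rho between its log2(CPM + 1) and the mean of the 3 genes over the 12 libraries. It is a description without a p, since the 3 genes were chosen by their pattern and all genes share the libraries' depth and scaling. The median over all tested genes was 0.06, and 2.61% of those other than the members were above 0.8. Among 6 axonemal dyneins the median was 0.84, and 5 were above 0.8. Among 11 tubulins it was 0.02, with 2 above 0.8, CPIJ001353-RA at 0.96 and CPIJ000407-RA at 0.89. Among the 3 leucine aminopeptidases it was -0.66, down to -0.95 for CPIJ002841-RA, and among 17 other aminopeptidases -0.38. The libraries farthest from the median on this measure were quinquefasciatus 5 and pallens 1. Without both, the medians were 0.79 for axonemal dyneins, 0.03 for tubulins, -0.67 for leucine aminopeptidases and 0.04 over all tested genes. The scale mattered for the middle of the range. On deposited RPKM, without TMM, the median over all tested genes was 0.36, tubulins stood at 0.45 and axonemal dyneins at 0.85.

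Further lists covered other cells that hold axonemes or germ cells. Among 4 tested genes of other axoneme and flagellum proteins, out of 11, the median likeness was 0.60, with flagellar radial spoke protein 3 (CPIJ002223-RA) highest at 0.81. The summed level of this list was 43.7 to 110.5 CPM in pallens and 41.5 to 89.2 CPM in quinquefasciatus. Among 14 tested testis and sperm genes, out of 22, the median was 0.58, 5 were above 0.8 and 3 were negative, the lowest at -0.81. Highest was testis-specific zinc finger protein topi (CPIJ001933-RA), which in *Drosophila* is needed for the transcription of genes of meiosis and spermatid differentiation, at 0.94. It had 2 to 35 reads in pallens, with the fewest in pallens 1, and 6, 14, 12, 2 and 0 reads in quinquefasciatus 1 to 5. The testis list as a sum did not set the 2 pools apart in the same way. It was 555 to 745 CPM in pallens, with pallens 1 at 643, and 505 to 678 CPM in quinquefasciatus, with quinquefasciatus 5 lowest. Topi, at 0.520 to 6.87 CPM in pallens, was a small part of that sum, which therefore says little about genes at such low levels. Of the 22 genes of the list, 4 had no read in pallens 1 and 8 had none in quinquefasciatus 5. Over all gene models read in at least 1 library, 19.4% had no read in pallens 1 and 19.3% had none in quinquefasciatus 5. The part of testis tissue in the levels of the cytosol aminopeptidases was not tested.

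The list of mechanosensory neuron genes held 3 tested genes out of 9, with a median likeness of 0.18. The highest, an ion channel nompc model (CPIJ016428-RA), reached 0.29 and had 16 reads in pallens 1 and 18 in quinquefasciatus 5, in a range of 16 to 51. The sum of that list was 12.5 to 20.4 CPM in pallens and 7.08 to 20.9 CPM in quinquefasciatus. The 9 tested ovary and egg genes, out of 21, had a median of 0.01, with a putative vitellogenin (CPIJ005473-RA) highest at 0.79, and their sum was 229.6 to 1095 CPM in pallens and 220.0 to 380.5 CPM in quinquefasciatus. The 6 tested cytoplasmic dynein and dynactin genes, out of 21, which move cargo in all cells, had a median of -0.19, but 0.45 on deposited RPKM, so that its sign rested on the scaling. Their sum was even, at 237 to 293 CPM in pallens and 242 to 271 CPM in quinquefasciatus. In the comparison of the subspecies edgeR and DESeq2 called 0 genes in each of these 5 lists. Unadjusted p was under 0.05 for 0 of the other axoneme genes, 1 testis gene, 1 mechanosensory gene, 2 ovary genes and 0 cytoplasmic dyneins. Over all genes edgeR called 0.537% and DESeq2 2.78%, and 13% had an unadjusted p under 0.05. Median log2 changes were 0.29 for the other axoneme genes, 0.27 for testis, -0.14 for mechanosensory, -0.16 for ovary and 0.08 for cytoplasmic dynein genes.

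**Figure D4:**
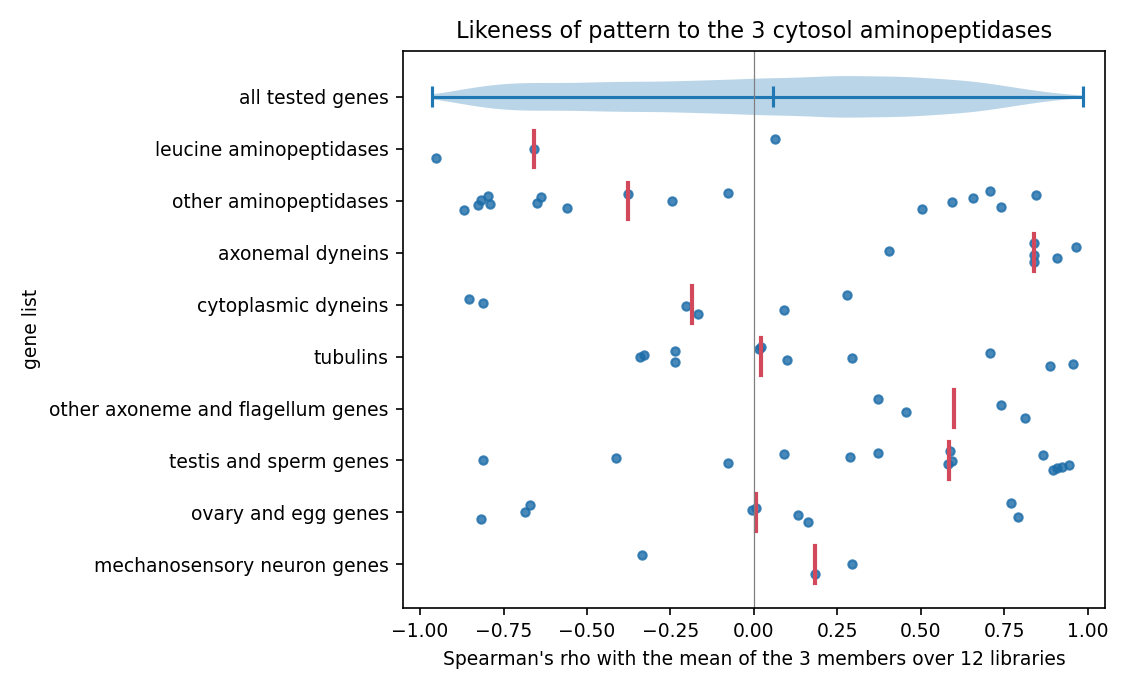
Spearman's rho of each tested gene with the mean of the 3 cytosol aminopeptidases over the 12 libraries, by gene list; points are genes, red bars are list medians, and the shape on top shows all other tested genes with their range and median. Axonemal dyneins lie at 0.41 to 0.97, whereas tubulins spread from -0.34 to 0.96.

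The 10 described genes most like the cytosol aminopeptidases had a rho of 0.94 to 0.98. First was a putative myosin motor (CPIJ009052-RA), with 0 to 160 reads in pallens and 13, 32, 18, 3 and 0 reads in quinquefasciatus 1 to 5. It had no read in pallens 1. Heat shock protein 70 B2 (CPIJ014564-RA), a chaperone, had 0 to 134 reads in pallens and 17, 30, 18, 10 and 0 in quinquefasciatus, and nucleosome assembly protein (CPIJ004419-RA), a histone chaperone, 0 to 76 reads in pallens and 6, 28, 14, 8 and 0 in quinquefasciatus. Both lacked reads in pallens 1 and quinquefasciatus 5.

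Dynein CPIJ010580-RA (rho 0.97) and alpha-tubulin CPIJ001353-RA (0.96) were also among the 10, as were armadillo repeat-containing protein 4 (CPIJ009397-RA, 0.95), known in mammals for docking dynein arms, protofilament ribbon protein (CPIJ001618-RA, 0.94) and EF-hand domain-containing protein 1 (CPIJ015374-RA, 0.94). Armadillo repeat-containing protein 4 had 1 to 61 reads in pallens, with the fewest in pallens 1, and 12, 14, 13, 2 and 0 reads in quinquefasciatus 1 to 5. Protofilament ribbon protein was less extreme by reads, with 10 in pallens 1 and 7 in quinquefasciatus 5, against 12 to 62 in the others. Those reads covered only 10.02% and 5.76% of its model, against 23.49 to 77.34% in the other libraries. The remaining 2 were arginine kinase (CPIJ002029-RA, 0.95), which stores energy as phosphoarginine in invertebrates, and topi. Arginine kinase had 1 read in pallens 1 and 6 in quinquefasciatus 5, against 22 to 371 in the others. For these 10 genes rho was 0.92 to 0.98 without pallens 1 and quinquefasciatus 5. Of the 25 tested genes other than the members with a rho of at least 0.95, 18 were described only as hypothetical or predicted proteins.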

How the data were processed

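The authors deposited 1 table per library with, per the file headers, the count of uniquely mapped reads on each gene model, its length, the percent of it covered and its RPKM. Per the labels, RNA of 30 larvae was pooled and the libraries do not record strand. Build, aligner and counter were not given in the sources used here. Genes not listed in a library were set to 0. The deposited RPKM equalled reads over length and library total. No identifier of the 3 genes matched the RefSeq table at hand (0 of 3).

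The main test was edgeR 4.0.16 (R 4.3.3) on the counts: quasi-likelihood, TMM, filterByExpr, pallens minus quinquefasciatus over 12 libraries, 10617 genes, Benjamini-Hochberg adjusted p under 0.05. DESeq2 1.42.0, other scalings and filters, and each library left out were alternatives. The fit was tested on simulated data. Exact permutation tests used scipy 1.17.1. The pseudocount was 1.

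The members and lists were chosen with earlier results of these data known. Lists were defined by words in the descriptions: leucine aminopeptidases, other aminopeptidases, axonemal dyneins, cytoplasmic dyneins, tubulins, other axoneme and flagellum genes, testis and sperm, ovary and egg, and mechanosensory neuron genes. Named genes were the members; the leucine aminopeptidases; in axonemal dyneins and tubulins the 3 most abundant per length, the 2 with the smallest p and the 2 with the highest likeness; in other aminopeptidases the 2 most abundant and the 2 with the smallest p; in each other list the gene of highest likeness; the 10 described genes most like the members; and the nearest gene model on each side of each member. Only unique reads were counted, without strand, so near-identical copies lose reads and antisense genes cannot be told apart.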

Additional observations from a re-analysis of the deposited data

Results flagged for a closer look

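In 98 groups of values tested for a library far from the others of its subspecies, 6 were found, where chance gives about 4.9. Pallens 1 was highest in 4 of them: leucyl aminopeptidase CPIJ009825-RA was at 209 CPM there and at most 110.1 CPM in the other pallens libraries, glutamyl aminopeptidase CPIJ011103-RA at 407 CPM against at most 204, xaa-Pro aminopeptidase 1 (CPIJ015407-RA) at 38.0 CPM against at most 20.01, and alpha-tubulin CPIJ015345-RA at 36.4 CPM against at most 6.31. Quinquefasciatus 5 was the outlying library in the other 2: glutamyl aminopeptidase was at 445 CPM there and at most 279 CPM in the other quinquefasciatus libraries, and the sum of the mechanosensory neuron genes was at 7.08 CPM, below 17.3 CPM. No level of the 3 cytosol aminopeptidases was among them.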

How the results depend on the processing

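Calls between the subspecies rested on the tool and on single libraries. Against 36 genes higher and 21 lower in pallens, DESeq2 called 162 and 133, and edgeR without pallens 1 and quinquefasciatus 5, a setting added after the data were seen, called 187 and 179. With 1 library left out the counts were 5 to 139 higher and 3 to 150 lower, with 80 and 150 without pallens 1, 139 and 70 without quinquefasciatus 5, and fewer than over all 12 without any other library. Called other aminopeptidases numbered 0, 2 with DESeq2, 1 without both libraries and 0 to 2 with 1 library left out. Called tubulins numbered 0, 2 with DESeq2, 1 without both libraries and 0 to 1 with 1 library left out. The cause of these differences was not tested.

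On deposited RPKM the median likeness became 0.45 for cytoplasmic dyneins, 0.45 for tubulins, 0.75 for other axoneme genes, 0.76 for testis genes, 0.41 for ovary genes and 0.36 for all tested genes. Over the 7 pallens libraries it was 0.0357 for all tested genes, and without both libraries it was -0.21 for mechanosensory genes. The difference in the share of CPIJ000990-RA was -11.7 to -8.16 percentage points with 1 library left out, and passed the threshold without quinquefasciatus 3 (exact permutation test, adjusted p = 0.0476). With 1 library left out, the log2 change was 1.21 to 2.11 for CPIJ000990-RA, 1.66 to 2.54 for CPIJ003539-RA and 1.24 to 1.85 for CPIJ009640-RA. In every alternative run the log2 changes of the 3 genes moved by less than the spread between libraries. That spread was wide, so this is a weak criterion. No paired analysis was possible because the labels number the libraries in a single run across both subspecies, and the replicate numbers used here only name them. At this depth, a gene under 0.579 to 0.772 CPM without TMM, by library, could not be told from one without reads.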

Other observations

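Of 17757 gene models, 42 had at most 3 reads in both pallens 1 and quinquefasciatus 5 and at least 5 reads in each of the other 10 libraries, limits set after the members' values were seen. Besides the 3 cytosol aminopeptidases, 39 such genes were found, and 20 of the 42 had a description. The genes named next were chosen after their values were seen. Alpha-tubulin CPIJ001353-RA and ciliary dynein heavy chain 11 (CPIJ002912-RA) were among them. Cytochrome c oxidase subunit VIA (CPIJ004219-RA) had no read in either pool and 5 to 64 reads in the others. Metaxin (CPIJ010130-RA) had 2 reads in pallens 1 and 1 in quinquefasciatus 5, against 6 to 52 in the others. A glutathione S-transferase (CPIJ002680-RA) had no read in either pool and 7 to 34 reads in the others. Among genes without a description, CPIJ010091-RA had 2 reads in pallens 1 and 0 in quinquefasciatus 5, against 35 to 594 in the others, and CPIJ008525-RA had 0 and 0 against 8 to 572.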
